A study of Mus musculus with 5 samples.

Results

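The DNA replication and mitosis genes are 47 genes of the cell division cycle, chosen by name: 23 that copy DNA or supply its building blocks (Mcm2 to Ccne2, the replication members) and 24 that condense, attach and separate chromosomes and divide the cell (Mki67 to Prc1, the mitosis members). All 47 were found once each among the 52550 genes of the count table, and all 47 were among the 11766 genes that passed the expression filter. They were measured by QuantSeq 3′ RNA sequencing, which reads the end of each polyadenylated transcript, in Lin-cKIT+Sca-1- (KL) cells, a sorted bone marrow population of committed myeloid progenitors. BcorΔE9-10 mice (genotype scl-Cre-ERT +; Bcorfl/y, n = 3) were compared with BcorWT mice (scl-Cre-ERT +; Bcorwt/y, n = 2), to ask what inactivation of the corepressor gene Bcor does to transcript levels. All mice, controls included, were males (the /y of the genotype) that carried the Cre transgene and had received 1 mg of tamoxifen on each of 5 days when 3 to 6 months old, and cells were taken 20 weeks later. The transgene is driven by a stem cell enhancer of Scl, which is not specific to KL cells, and excision of exons 9 and 10 leaves a truncated protein rather than none. The labels do not say whether each library came from 1 mouse, so p-values measure the spread between these libraries.

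Replication begins when the Mcm2-7 helicase is loaded on origins by Cdc6 and Cdt1 and is switched on with Cdc45 and the GINS complex. Polymerase alpha and primase then start each strand, the sliding clamp Pcna holds the polymerases, and Fen1 and Lig1 finish the lagging strand. Mitosis is driven by Cdk1 with cyclins A and B, by the Polo and Aurora kinases and by kinesins, is held back by the Bub and Ttk checkpoint kinases, and is ended by Cdc20 and Ube2c of the anaphase-promoting complex. Granulocyte progenitors divide as they mature and stop before they become neutrophils, so these transcripts are carried by the dividing fraction of a KL sort. In bulk libraries, fewer dividing cells and less of a transcript per cell cannot be told apart.

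The 2 groups of genes are known for different promoter elements, so the promoter windows were read from RefSeq (GRCm38.p6, 250 bases before to 50 after the gene start), which held a window for 19 of the 23 replication members and 20 of the 24 mitosis members. No window was found for Mcm4, Gins1, Gins2, Ccne2, Ccna2, Aurkb, Kif20a and Tpx2. In the lines below, 3 sites from replication genes and 3 from mitosis genes are given, each 30 bases 5′ to 3′ on the strand of its gene, because they are examples of the element that each group is known for. Capitals mark an E2F match in the first 3 and a CHR (cell cycle genes homology region) match in the last 3. In Cdc6 the match lies on the opposite strand. Cdc20 and Cdk1 each carry a CCAAT box in lower case beside the CHR match, in Cdk1 on the opposite strand.
Mcm5, chr8:75109345-75109374, plus strand: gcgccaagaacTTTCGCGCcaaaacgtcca
Mcm6, chr1:128359797-128359826, minus strand: tggcgtatgctTTTGGCGCgaaaagtgcgt
Cdc6, chr11:98908002-98908031, plus strand: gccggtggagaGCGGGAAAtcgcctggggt
Mki67, chr7:135716478-135716507, minus strand: ttagcgccagaaTTTGAAccgccgttttgg
Cdk1, chr10:69352966-69352995, minus strand: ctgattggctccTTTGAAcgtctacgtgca
Cdc20, chr4:118437344-118437373, minus strand: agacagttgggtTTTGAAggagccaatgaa

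An E2F match (TTTCCCGC, TTTGGCGC, TTTGCCGC or TTTCGCGC on either strand, the second and the last of which can overlap on opposite strands) was in the window of 8 of 19 replication members (42.1%) and 1 of 20 mitosis members (5.0%, Cdk1), against 2.6% of 27025 genes with a window. A CHR match (TTTGAA or TTCGAA) was in 4 of 19 replication members (21.1%) and 16 of 20 mitosis members (80.0%), against 21.7% of those genes. A CCAAT match was in 11 of 19 (57.9%) and 18 of 20 (90.0%), against 41.1%. These matches are a description of letters and not of bound sites. The members that rose and those that fell both held CHR and CCAAT matches: of 3 with a window that rose, 0 held an E2F, 2 a CHR and 2 a CCAAT match, and of 6 that fell, 1 held an E2F, 3 a CHR and 3 a CCAAT match.

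The libraries held 5998924 to 8303999 counts. Values below are CPM, counts per 1e+06 of the library total after scaling by TMM (trimmed mean of M values) factors of 0.931 to 1.08, and the log2 fold change of a gene is its BcorΔE9-10 level over its BcorWT level as fitted by limma-voom, with a standard error (SE). A gene was called at an adjusted p (Benjamini-Hochberg over all 11766 genes) under 0.05, which called 10.1% of them, 6.02% higher and 4.09% lower. Kit, the receptor used in the sort, was at 49.3 to 53.3 CPM in BcorΔE9-10 and 18.1 and 19.5 CPM in BcorWT. The 8 KL progenitor genes, Kit among them, summed to 7098 to 8429 CPM in BcorΔE9-10 and 7661 and 8402 CPM in BcorWT, with 4 above 0 and 4 below in log2 fold change and 2 called, both higher. Ly6a, which encodes Sca-1, had 3 to 8 counts a library. Transcripts of 9 mature neutrophil genes summed to 148700 to 172600 CPM in BcorΔE9-10 and 215200 and 226800 CPM in BcorWT, and 5 of the 9 fell. Sums for 12 erythroid genes were 51.7 to 192 and 20.7 to 55.5 CPM, for 5 megakaryocyte genes 43.6 to 69.4 and 26.6 to 45.6 CPM, for 10 lymphoid genes 9.32 to 21.4 and 7.54 to 13.3 CPM, and for 6 basophil and mast cell genes 181 to 192 and 287 to 448 CPM. Among the genes tested, each of these lists held log2 fold changes of both signs. Neutrophil genes lay 1 above and 8 below 0, erythroid 6 and 1, and megakaryocyte 3 and 2. Lymphoid genes lay 4 above and 1 below, and basophil and mast cell genes 1 and 5. Of the last list 3 genes were called lower and 1, Gata2, higher. The part of these differences in the results on replication and mitosis genes was not tested.

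The BcorWT libraries differed from each other in these genes, among others. Of the 47 members, 45 were higher in BcorWT library 2 than in library 1, all but Tk1 and Ttk, against 52.3% of all genes tested. The median log2 difference between these libraries was 0.325 over the members and 0.023 over all genes. The mature neutrophil genes were higher in library 1 except Camp, with Retnlg at 828 and 259 CPM and Mmp8 at 803 and 276 CPM in libraries 1 and 2. Camp was at 18410 and 23780 CPM. The bearing of this on the members was not tested. Results that rest on 1 control are therefore also given without it. With 1 control left, that library is assumed to vary like the others.

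The replication genes did not move as a block: 3 of 23 rose (Mcm4, Pcna and Fen1), 2 fell (Lig1 and Ccne1) and 18 did not pass the test. Of the mitosis genes, 2 of 24 were higher (Aurkb and Bub1), 4 lower (Mki67, Plk1, Birc5 and Cenpf) and 18 not called, and most values were below 0 (16 of 24). The shares called were 21.7% and 25%, and 23.4% over all 47, above the 10.1% of all genes. These genes are better expressed than most, and of the 7340 genes at least as high as the lowest member, 13.5% were called. That share sets a floor only, at a mean of 9.21 CPM, and is not matched to the members' levels, which reach 446 CPM. Scaling by total counts alone, which shifts the median of all genes to 0.149 and turns their calls from 708 higher and 481 lower into 1210 and 197, left 3 replication members (3 higher, 0 lower) and 4 mitosis members (2 higher, 2 lower) called. The balance of directions also turned with the control used: without BcorWT library 1 the calls were 2 higher and 3 lower among replication and 0 higher and 4 lower among mitosis members, and without library 2 they were 3 higher and 0 lower, and 3 higher and 1 lower. The calls over all genes moved as well, to 281 higher and 277 lower without library 1 and 653 higher and 547 lower without library 2.

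The median log2 fold change was 0.109 over the replication members, with 13 above 0 and 10 below, and -0.168 over the mitosis members, with 8 above and 16 below. The median of all genes tested was 0.004. Without BcorWT library 1 the replication median turned to -0.093, and without BcorWT library 2 the mitosis median was -0.05. The CPM of the groups did not overlap for 6 replication members that were higher and 3 that were lower in BcorΔE9-10, and for 2 higher and 8 lower mitosis members. Over all genes tested 22.5% were higher and 20.3% lower without overlap, so the 2 of 24 higher mitosis members lay below the first share and the 8 of 24 lower ones above the second. The lower mitosis members depend on the scaling. With total counts alone, applied to overlap after seeing the data, 7 replication members were higher and 2 lower without overlap. For mitosis members these numbers were 3 and 3, and over all genes the shares were 32.6% and 10.6%. Of the 11 called members all but Birc5 stayed without overlap.

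Summed over the members, the replication genes gave 2365, 2414 and 2369 CPM in BcorΔE9-10 and 2098 and 2548 CPM in BcorWT. The BcorΔE9-10 libraries thus lay between the controls, at a mean of 2382 ± 27.2 CPM (SD, n = 3) against 2323 ± 318 (SD, n = 2). The mitosis genes gave 3072, 3011 and 3203 CPM in BcorΔE9-10 and 3305 and 4087 CPM in BcorWT, so every BcorΔE9-10 library was below both controls on this TMM scale, with means of 3096 ± 98.1 CPM (SD, n = 3) and 3696 ± 553 (SD, n = 2). The ratio of the replication sum to the mitosis sum was 0.77, 0.802 and 0.74 in BcorΔE9-10 and 0.635 and 0.623 in BcorWT. The ratio differed little between the controls, although each sum differed between them. With total counts alone, applied to the sums after seeing the data, the mitosis sums were 3136, 3082 and 3455 per 1e+06 counts in BcorΔE9-10. In BcorWT they were 3077 and 3896, so the BcorΔE9-10 sums lay inside the span of the controls. The replication sums were 2414, 2470 and 2555 against 1953 and 2429, so the places of both sums depend on the scaling. A scaling factor of a library cancels in the ratio, so the ratio could not change with it, and the ratio was not recomputed after GC correction. The ratio is a description, since the sums follow a few well expressed genes.

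**Figure D1:**
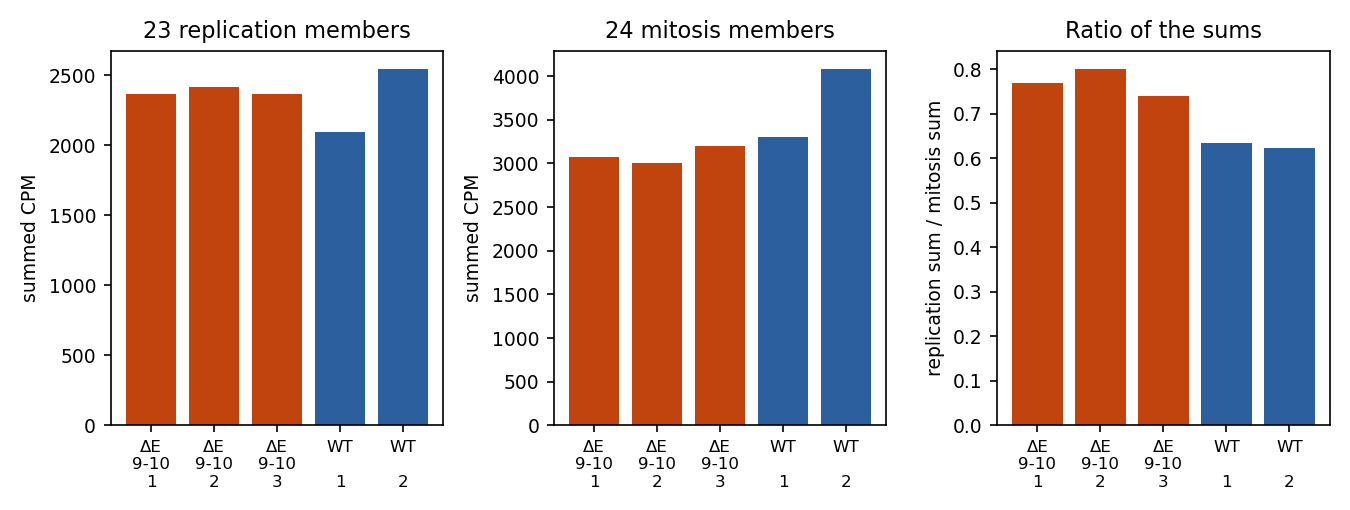
Bars give the TMM-scaled CPM summed over the 23 replication members (left) and the 24 mitosis members (middle), and the first sum over the second (right), in each BcorΔE9-10 (orange) and BcorWT (blue) library. The BcorΔE9-10 replication sums lie between the controls at 2098 and 2548 CPM, the mitosis sums lie below both controls (with total counts alone they lie between them), and the ratio is 0.74 to 0.802 against 0.623 and 0.635.

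Among the subunits of the replicative helicase, Mcm4 alone rose. Mcm4 (mm10, chromosome 16, 15623897 to 15637400, minus strand) was at 196, 182 and 195 CPM in BcorΔE9-10 and 103 and 145 CPM in BcorWT, a log2 fold change of 0.64 (limma SE 0.136, adjusted p = 0.00681). All 3 BcorΔE9-10 libraries were above both controls. The call was lost without BcorWT library 1, at 0.39 (limma adjusted p = 0.122). The last 300 bases of its annotated transcript, taken as the part that QuantSeq reads, hold 23.3% G and C, the lowest of the 47 members. After correction for this GC content the value was 0.16 (limma adjusted p = 0.511). Where the reads fall was not checked.

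The other helicase subunits had log2 fold changes from -0.15 to 0.25, and the median of the 6 was 0.072. Mcm2 was at 97.8, 117 and 110 CPM in BcorΔE9-10 and 77.4 and 107 CPM in BcorWT (0.25, SE 0.146, limma adjusted p = 0.307). BcorWT library 2 lay within the BcorΔE9-10 range of Mcm2 and library 1 below it, so its value rests on 1 control. Mcm5 was at 180, 178 and 173 CPM against 189 and 202 CPM (-0.15, SE 0.108, limma adjusted p = 0.417), with every BcorΔE9-10 library below both controls by a small margin. Mcm6 was at 237, 275 and 247 CPM against 244 and 277 CPM (-0.04, SE 0.112, limma adjusted p = 0.851). Mcm3 (0.01) and Mcm7 (0.14) also overlapped between the groups. In Mcm5 and Mcm7, 17% and 32.5% of the 30-base words of the transcript end occur in other genes, so reads may be shared with those.

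The loader Cdc6 was at 47.8, 45.3 and 45.4 CPM in BcorΔE9-10 and 42.8 and 52.1 CPM in BcorWT (-0.03, SE 0.147, limma adjusted p = 0.926), inside the span of the controls. Its partner Cdt1 (-0.10), the helicase activator Cdc45 (-0.05) and the GINS subunits Gins1 (0.39) and Gins2 (0.21) were not called either, and each overlapped between the groups. Gins1 spanned 5.24 and 10.7 CPM in the controls, which holds 2 of its 3 BcorΔE9-10 values.

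In the synthesis machinery behind the helicase, Pcna and Fen1 rose and kept their calls under every alternative, with all libraries and without any 1 of them. Pcna (chromosome 2, 132249162 to 132253314, minus strand), the clamp that encircles DNA, was at 196, 245 and 218 CPM in BcorΔE9-10 and 124 and 152 CPM in BcorWT, a log2 fold change of 0.67 (limma SE 0.130, adjusted p = 0.00359). Fen1 (chromosome 19, 10199132 to 10204169, minus strand), the nuclease that trims the flaps of Okazaki fragments, was at 66.2, 75.9 and 78.5 CPM against 25.5 and 47 CPM, a log2 fold change of 1.08 (limma SE 0.199, adjusted p = 0.00254). For both genes all 3 BcorΔE9-10 libraries exceeded both controls. The size of the Fen1 change rests on the control used: it was 0.63 without BcorWT library 1 (limma adjusted p = 0.0456) and 1.52 without library 2. For Pcna these values were 0.52 (limma adjusted p = 0.0450) and 0.82. After GC correction Pcna was at 0.44 (limma adjusted p = 0.0345) and Fen1 at 1.08 (limma adjusted p = 0.00246).

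Lig1 (chromosome 7, 13277283 to 13311433, plus strand), the ligase that seals the nick Fen1 leaves, went the other way. It was at 356, 276 and 320 CPM in BcorΔE9-10 and 415 and 456 CPM in BcorWT, a log2 fold change of -0.46 (limma SE 0.115, adjusted p = 0.0184). All BcorΔE9-10 libraries were below both controls, as opposed to Fen1 and Pcna in the same step. The call was lost without BcorWT library 2, at -0.39 (limma adjusted p = 0.0796), with total counts alone, at -0.31 (limma adjusted p = 0.0927), and after GC correction, at -0.32 (limma adjusted p = 0.0871).

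Primase and polymerase alpha start each strand. The primase subunit Prim1 was at 21.5, 17.6 and 16.1 CPM in BcorΔE9-10 and 10.9 and 14.2 CPM in BcorWT, a log2 fold change of 0.56 (limma SE 0.231, adjusted p = 0.141), without overlap of the groups, and did not pass the test. The catalytic subunit Pola1 was at 0.12, with groups that did not overlap either, and the clamp loader subunit Rfc4 at -0.10. Rfc4 ends opposite Eif4a2, which holds 3072 counts against 435 for Rfc4, and whether strand was used in counting is not stated.

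Of the enzymes that supply deoxynucleotides, Rrm2, the regulated subunit of ribonucleotide reductase, was at 146, 141 and 137 CPM in BcorΔE9-10 and 120 and 201 CPM in BcorWT (-0.13, SE 0.163, limma adjusted p = 0.652). The 3 BcorΔE9-10 libraries were within 10 CPM of one another, and the gap was all between the controls. The value was -0.51 without BcorWT library 1, where it passed the test (limma adjusted p = 0.0314), and 0.24 without library 2, so the direction for Rrm2 depends on 1 control. Rrm1 (0.11), Tyms (0.12), the thymidylate synthase, and Tk1 (-0.05), the thymidine kinase, overlapped between the groups.

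The E-type cyclins, partners of Cdk2 at the start of replication, had values of opposite sign. Ccne1 (chromosome 7, 38097984 to 38107534, minus strand) was at 18.2, 19.2 and 17.3 CPM in BcorΔE9-10 and 25.2 and 32.0 CPM in BcorWT, a log2 fold change of -0.64 (limma SE 0.184, adjusted p = 0.0350). Ccne2 was at 11.6, 12.7 and 11.7 CPM against 8.79 and 9.76 CPM, a log2 fold change of 0.36 (limma SE 0.243, adjusted p = 0.372). Neither gene overlapped between the groups, Ccne1 being lower and Ccne2 higher in every BcorΔE9-10 library, and the difference between them was not tested. The Ccne1 call was held in 1 of 5 fits that left out a library, the one without BcorWT library 1 (-0.82, limma adjusted p = 0.0298), and was lost without BcorΔE9-10 library 1, 2 or 3 (-0.64, -0.68 and -0.62, with limma adjusted p = 0.0829, 0.0645 and 0.104) and without BcorWT library 2 (-0.47, limma adjusted p = 0.198). It was also lost after GC correction (-0.51, limma adjusted p = 0.101), with total counts alone (-0.50, limma adjusted p = 0.102) and without the expression filter (-0.64, limma adjusted p = 0.0521). With a replicate block alone (-0.60, limma adjusted p = 0.0601) and with GC correction added to the block, the call was lost too. Ccne2 ends opposite Ints8, and its GC-corrected value was 0.03.

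**Figure D2:**
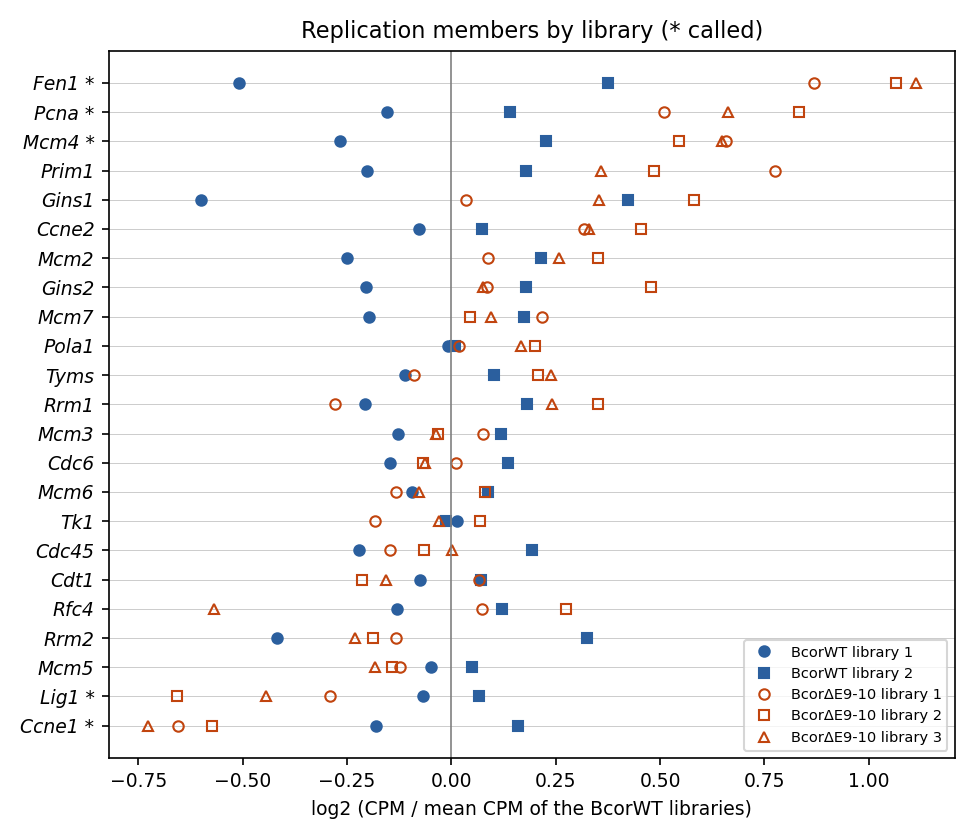
Each row is a replication member and each point a library, placed at the log2 ratio of its CPM to the mean CPM of the BcorWT libraries (blue filled, BcorWT; orange open, BcorΔE9-10; asterisks, called). Fen1, Pcna and Mcm4 lie to the right of both controls and Lig1 and Ccne1 to the left, while BcorWT library 2 lies to the right of library 1 for all rows but Tk1.

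Of the mitosis genes, Mki67 (chromosome 7, 135689784 to 135716361, minus strand), whose protein coats mitotic chromosomes and is a common marker of dividing cells, fell. It was at 178, 158 and 192 CPM in BcorΔE9-10 and 247 and 265 CPM in BcorWT, a log2 fold change of -0.54 (limma SE 0.115, adjusted p = 0.00700). All 3 BcorΔE9-10 libraries were below both controls. The call held in all 10 alternatives that left out no library and in all 5 that left out a library, with log2 fold changes from -0.62 to -0.39. The replicate block fits among the 10 rest on libraries 1 and 2 of each group. Top2a, the topoisomerase that untangles sister chromatids, was at 388, 319 and 396 CPM against 413 and 482 CPM (-0.28, SE 0.116, limma adjusted p = 0.141), below both controls in every BcorΔE9-10 library without passing the test.

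The cyclins and Cdk1, which trigger entry into mitosis, were not called. Cdk1 was at 395, 458 and 403 CPM in BcorΔE9-10 and 432 and 541 CPM in BcorWT (-0.22, SE 0.114, limma adjusted p = 0.254). Ccnb1 was at 83.6, 78.8 and 91.7 CPM against 97.8 and 114 CPM (-0.31, SE 0.128, limma adjusted p = 0.137), with no overlap. Ccna2, which acts in both replication and mitosis, was at 79.8, 78.5 and 105 CPM against 66.6 and 83.9 CPM (0.23, SE 0.156, limma adjusted p = 0.381). The cyclins thus had values of both signs, and Ccnb2, at 0.07, overlapped between the groups. Ccna2 ends opposite Exosc9.

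Plk1 (chromosome 7, 122159439 to 122169873, plus strand), the Polo kinase needed for spindle formation and exit from mitosis, was at 314, 276 and 268 CPM in BcorΔE9-10 and 372 and 500 CPM in BcorWT, a log2 fold change of -0.59 (limma SE 0.126, adjusted p = 0.00680). All BcorΔE9-10 libraries were below both controls, but the controls were themselves far apart. Without BcorWT library 2 the value was -0.38 (limma adjusted p = 0.0739), and without library 1 it was -0.81. After GC correction it was -0.44 (limma adjusted p = 0.0391).

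The Aurora kinases had values of opposite sign, and the difference between them was not tested. Aurkb (chromosome 11, 69045647 to 69051664, plus strand), the kinase of the chromosomal passenger complex that corrects faulty attachment of chromosomes, was at 35.4, 39.1 and 37.3 CPM in BcorΔE9-10 and 14.6 and 23.2 CPM in BcorWT, a log2 fold change of 1.01 (limma SE 0.202, adjusted p = 0.00438). Aurka, the spindle pole kinase, was at -0.24 (SE 0.146, limma adjusted p = 0.315) and overlapped. Aurkb was above both controls in every BcorΔE9-10 library. Its value was 0.67 without BcorWT library 1 (limma adjusted p = 0.0868), where the call was lost, and 0.89 after GC correction (limma adjusted p = 0.00965).

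Birc5 (chromosome 11, 117849251 to 117855743, plus strand), or survivin, is a subunit of the same complex as Aurkb and fell. It was at 346, 331 and 362 CPM in BcorΔE9-10 and 414 and 508 CPM in BcorWT, a log2 fold change of -0.40 (limma SE 0.109, adjusted p = 0.0262). The remaining subunits, which are not among the 47 and were looked at together after their values were seen, were Incenp, at 173, 164 and 197 CPM against 231 and 250 CPM (-0.44, SE 0.115, limma adjusted p = 0.0239), and Cdca8, at 254, 267 and 281 CPM against 319 and 369 CPM (-0.36, SE 0.108, limma adjusted p = 0.0432). The 3 other subunits of the complex were thus lower and the kinase higher in every BcorΔE9-10 library in TMM-scaled CPM. Birc5 was lost without BcorΔE9-10 library 1 or 2 (-0.40 and -0.38, limma adjusted p = 0.0817 and 0.0584), without BcorWT library 2 (-0.25, limma adjusted p = 0.218) and after GC correction (-0.35, limma adjusted p = 0.0566). Incenp was lost without the same 3 libraries (-0.41, -0.38 and -0.37, limma adjusted p = 0.0876, 0.0620 and 0.0961) and Cdca8 without each library except BcorWT library 1 (-0.41 to -0.25, limma adjusted p = 0.0654 to 0.238), after GC correction (-0.23, limma adjusted p = 0.222) and with sample quality weights (-0.36, limma adjusted p = 0.0518). With total counts alone all 3 calls were lost, Birc5 at -0.26, Incenp at -0.29 and Cdca8 at -0.22 (limma adjusted p = 0.155, 0.141 and 0.243).

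The checkpoint genes delay separation until every chromosome is attached. Bub1 (chromosome 2, 127801122 to 127831865, minus strand), whose product marks centromeres for the passenger complex, had 164, 97 and 129 counts in BcorΔE9-10 and 28 and 66 in BcorWT, or 19.4, 15.8 and 15.1 CPM against 3.97 and 9.76 CPM. The groups did not overlap and the log2 fold change was 1.42 (limma SE 0.330, adjusted p = 0.0121). Without BcorWT library 1 it was 0.76 (limma adjusted p = 0.192), without library 2 it was 2.06, and after GC correction its adjusted p was 0.0370 by limma. Its relative Bub1b was at 0.03 (SE 0.154, limma adjusted p = 0.923) and the kinase Ttk at -0.15 (SE 0.243, limma adjusted p = 0.742), both with overlap.

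**Figure D3:**
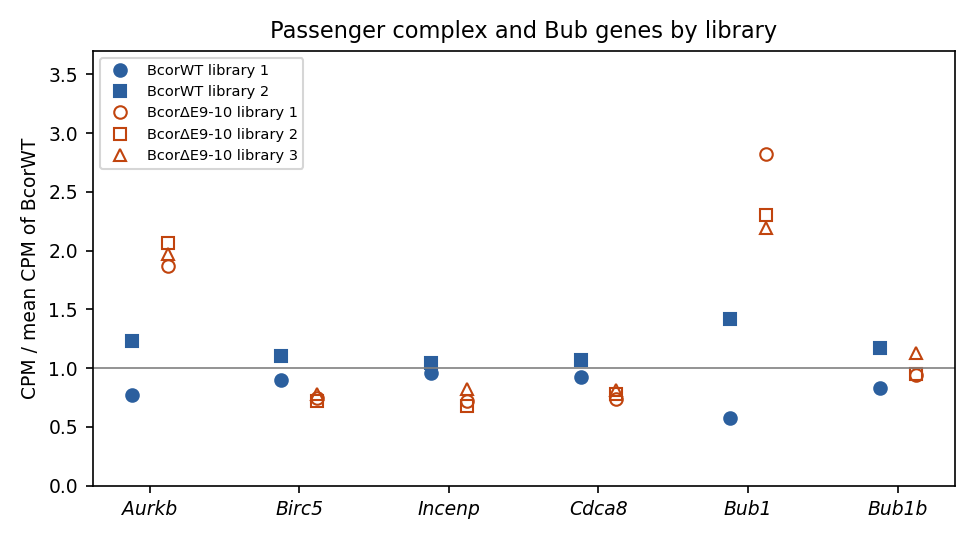
CPM of Aurkb, Birc5, Incenp, Cdca8, Bub1 and Bub1b in each library, divided by the mean CPM of the BcorWT libraries (grey line at 1; blue filled, BcorWT; orange open, BcorΔE9-10). Aurkb and Bub1 lie above both controls and Birc5, Incenp and Cdca8 below both in every BcorΔE9-10 library, while Bub1b overlaps.

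Cenpf (chromosome 1, 189640606 to 189688086, minus strand), a kinetochore protein, was at 102, 104 and 100.4 CPM in BcorΔE9-10 and 130 and 147 CPM in BcorWT, a log2 fold change of -0.43 (limma SE 0.118, adjusted p = 0.0270). The groups did not overlap, but 36.2% of the words of its transcript end occur in other genes, so its counts may not be its own. The call was lost without BcorΔE9-10 library 1 or 3 (-0.43 and -0.44, limma adjusted p = 0.0822 and 0.0811), without BcorWT library 2 (-0.34, limma adjusted p = 0.140) and with total counts alone (-0.29, limma adjusted p = 0.149). Cenpa, the histone variant of centromeres, was at 0.10 and the kinetochore motor Cenpe at 0.01, both with overlap.

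Cdc20, which starts the destruction of cyclin B, was at 94.6, 103 and 111 CPM in BcorΔE9-10 and 120 and 138 CPM in BcorWT (-0.33, SE 0.124, limma adjusted p = 0.107), below both controls in every library without passing the test. Reads of Cdc20 may include others, since 25.5% of the words of its end are shared and it ends opposite Elovl1. Ube2c, the ubiquitin-conjugating enzyme of the same step, was at -0.19. Of the motors and spindle proteins, Kif11, which pushes the poles apart, was at 0.38, Kif20a at -0.18, Kif23 at -0.14, Tpx2 at -0.09, Prc1 at -0.09 and Nusap1 at -0.35. Of these only Nusap1 had groups that did not overlap, with 55.8 to 62.2 CPM in BcorΔE9-10 and 66.6 and 84.0 CPM in BcorWT (limma adjusted p = 0.134). Kif11 passed the test without BcorWT library 2 (0.79, limma adjusted p = 0.0319) and was at -0.04 without library 1.

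**Figure D4:**
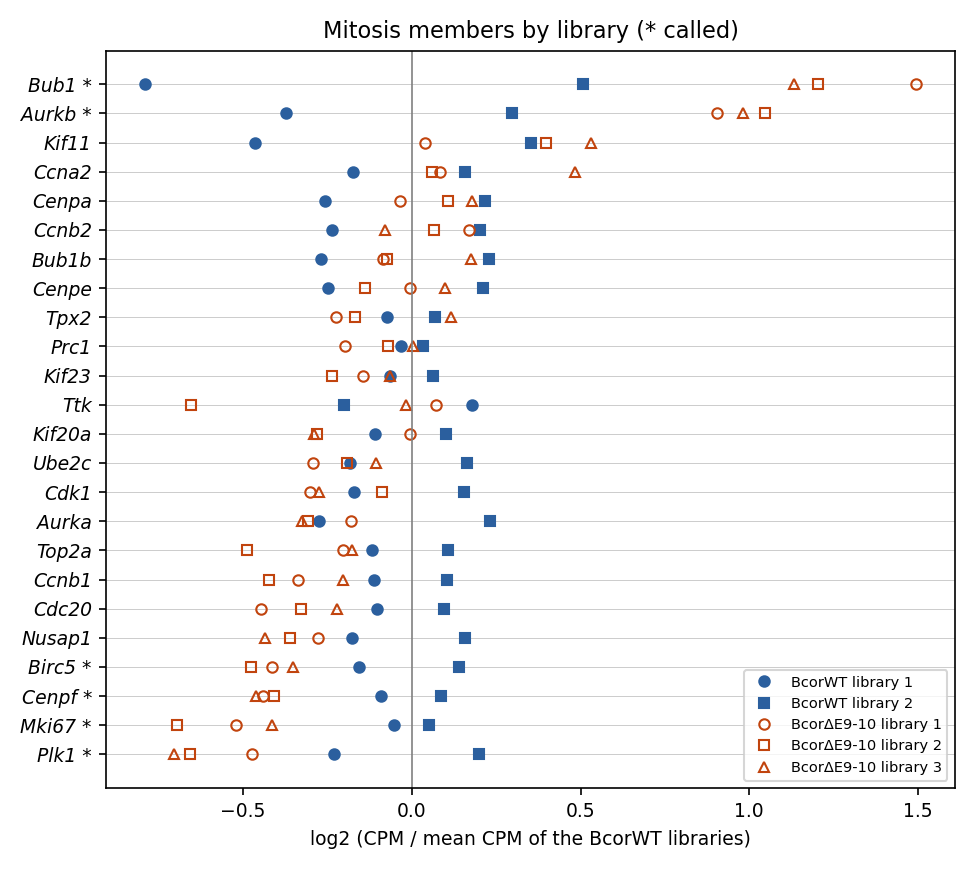
Each row is a mitosis member and each point a library, placed at the log2 ratio of its CPM to the mean CPM of the BcorWT libraries (blue filled, BcorWT; orange open, BcorΔE9-10; asterisks, called). Bub1 and Aurkb lie to the right of both controls, and the lowest 8 rows, Top2a to Plk1, to the left of both.

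The values followed the base composition of the transcript ends. Across the 47 members the Spearman correlation between log2 fold change and GC content of the last 300 transcript bases was -0.52, and it was -0.55 over the 23 replication and -0.53 over the 24 mitosis members, against -0.27 over 11759 genes. These points share the same 5 libraries and are given as a description. The 5 members that rose held 23.3% to 40% G and C (median 32.0%), and the 6 that fell 39.7% to 51.7% (median 46.9%). After a trend on GC content was removed from each library, the correlation over the members was -0.16. Then 7 of the 47 were called, against 8.46% of all genes, a share with no expression floor. All 7 were among the 11 called before: Pcna, Fen1, Aurkb and Bub1 higher and Mki67, Plk1 and Cenpf lower. Mcm4, Lig1, Ccne1 and Birc5 were lost, 3 of the 5 replication calls among them, and the medians were 0.012 over the replication and -0.176 over the mitosis members. Whether GC content or function lies behind the uncorrected differences was not tested.

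**Figure D5:**
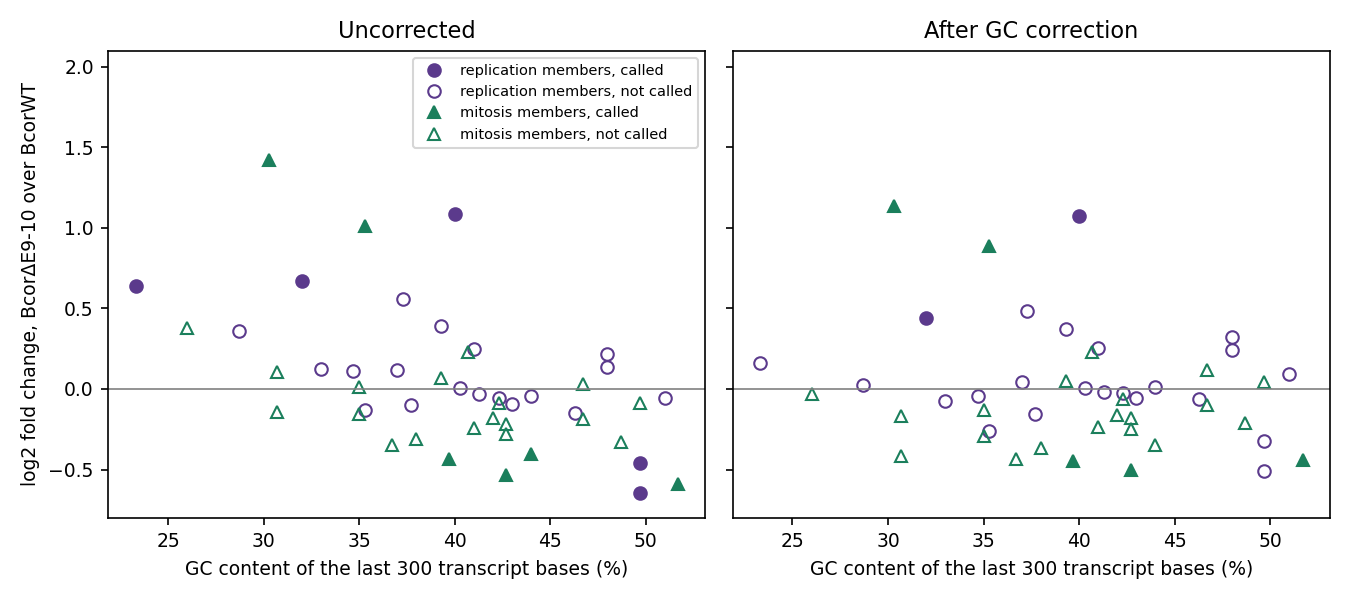
Each point is a member (circles, replication; triangles, mitosis; filled, called in the fit of that panel), with the share of G and C in the transcript's last 300 bases (percent) on the horizontal axis and its log2 fold change on the vertical axis, before (left) and after (right) correction for GC content. Low-GC members lie higher in the left panel, and the correlation goes from -0.52 to -0.16 in the right.

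Further genes of the cycle, listed from general knowledge, were counted the same way. Of 39 other replication genes 3 rose and 0 fell (7.69%, median 0.055), of 45 other mitosis genes 4 rose and 2 fell (13.3%, median 0.091), and of 33 regulators that passed the filter, out of 34, 3 rose and 2 fell (15.2%, median 0.098). Taking these lists as one, 14 of 117 were called (12.0%), close to the 10.1% of all genes.

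The other replication genes that rose were Orc6, a subunit of the origin recognition complex, Pold3, a subunit of polymerase delta, and Timeless, which holds the fork together. Orc6 was at 24.1, 32.1 and 33.7 CPM in BcorΔE9-10 and 12.5 and 12.6 CPM in BcorWT (1.23, SE 0.228, limma adjusted p = 0.00264), and its call was kept without any 1 library. Pold3 (0.67, limma adjusted p = 0.0399) was kept only without BcorWT library 2 among those 5 fits (lowest value 0.46, limma adjusted p = 0.312, without BcorWT library 1), and Timeless (0.81, limma adjusted p = 0.0274) was lost without BcorΔE9-10 library 2 or 3 and without BcorWT library 1 (0.76, 0.74 and 0.57, limma adjusted p = 0.0722, 0.0925 and 0.252). Leaving out BcorΔE9-10 library 2 or 3 left 1 of the 39 called, and without BcorWT library 1 the calls were 1 higher and 1 lower.

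Besides Incenp and Cdca8, which fell, the other mitosis genes called were Anln, the anillin of the contractile ring (1.32, limma adjusted p = 0.00348), Ckap2, a spindle microtubule protein (1.48, limma adjusted p = 0.00132), Nek2, a centrosome kinase (1.83, limma adjusted p = 0.0247), and Cep55, of the midbody (0.96, limma adjusted p = 0.0313). Anln was at 22.4, 25.3 and 32.4 CPM in BcorΔE9-10 and 8.79 and 12.7 CPM in BcorWT, and Ckap2 at 31.2, 33.7 and 44.3 CPM against 10.2 and 16.6 CPM. These 2 were kept without any 1 library. Nek2 and Cep55 were lost without BcorΔE9-10 library 2 or 3 and without BcorWT library 1. Without that control they were at 1.09 and 0.50, their lowest values in any alternative. Cep55 was also lost after GC correction (0.59, limma adjusted p = 0.174). Leaving out BcorΔE9-10 library 2 left 2 of the 45 called. No gene of the 45 was called lower without BcorWT library 2 (8 higher, 0 lower) or with total counts alone (9 higher, 0 lower).

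Among the regulators, E2f8, an atypical E2F that represses replication genes, was at 90.8, 123 and 121 CPM in BcorΔE9-10 and 22.8 and 45.9 CPM in BcorWT, a log2 fold change of 1.78 (limma SE 0.225, adjusted p = 0.00014). It was kept in every alternative, from 1.26 to 2.28. Chek1, the kinase that answers stalled forks, was at 13.6, 20.5 and 17.3 CPM against 5.39 and 8.88 CPM (1.26, SE 0.30, limma adjusted p = 0.0138), and was lost without BcorWT library 1 (0.89, limma adjusted p = 0.145). Rbl1, which encodes the pocket protein p107, rose by 0.66 (limma adjusted p = 0.0241) and was lost after GC correction (0.22, limma adjusted p = 0.489) and without each library except BcorWT library 2 (0.56 to 0.70, limma adjusted p = 0.0515 to 0.177).

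Cdc25b, the phosphatase that activates Cdk1, fell, at 39.3, 27.5 and 38.5 CPM in BcorΔE9-10 and 54.9 and 63.8 CPM in BcorWT (-0.75, SE 0.166, limma adjusted p = 0.00937), and was kept in every alternative. Ccnd3, a D-type cyclin, fell by 0.57 (limma adjusted p = 0.00117) and was kept as well, but 80.4% of the words of its transcript end occur in other genes and it ends opposite Bysl, so its counts are uncertain. The regulators called numbered 3 without BcorWT library 1 (1 higher, 2 lower) and 8 without library 2 (4 higher, 4 lower).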

How the data were processed

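Gene expression was measured in 5 libraries of KL cells (3 BcorΔE9-10, 2 BcorWT), grouped by their titles. The authors made QuantSeq 3′ libraries, trimmed reads with cutadapt, aligned them to mm10 with HISAT2 and counted them per gene with featureCounts of Subread (version 1.5.0-p3, in the submitters' processing notes); the deposited values are raw counts, whole numbers with no normalisation. The settings for strand and for reads with several positions are not given in the sources used here, so overlapping genes and genes with similar ends may hold reads of one another. Of 52550 genes, 52403 were given symbols through GENCODE M21.

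filterByExpr (edgeR 4.0.16) kept genes with a count of at least 10 in enough libraries and a total of at least 15, and these were scaled by TMM and put through voom and limma 3.58.1 in R 4.3.3, two-sided, with Benjamini-Hochberg adjustment over 11766 genes. limma was used because the study names it. Alternatives were edgeR's quasi-likelihood test, DESeq2 (version 1.42.0), other scalings and filters, sample quality weights, a replicate block, a lowess correction (span 0.3) for GC content of the last 300 transcript bases, and leaving out each library. The GC content is that of 1 annotated transcript of each gene, which may not end where the reads fall. On simulated counts of this comparison, 61.8% of 199 genes changed by a log2 fold of 1 among 11501 were called in the right direction, 6% of 199 changed by 0.5 among 11462, and 2 of 11475 with none changed. Each gene was drawn independently, so the simulation holds no difference shared by many genes, as the cycle genes showed between the controls. Each library was kept as a replicate, since none repeated another of its group (chi-square of 5.96 to 11.3 per gene between 2 libraries, where 1 would be counting error alone).

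Values in every library are given for members called, for the 6 of each group with the largest absolute log2 fold change, and for Mcm2, Mcm5, Mcm6, Pcna, Rrm2, Cdc6, Ccne1, Ccne2, Mki67, Top2a, Ccna2, Ccnb1, Cdk1, Plk1, Aurkb and Cdc20. Called genes of the other lists are named, up to 10 a list. The members, lists and tests were chosen with earlier results of these data known. Lists are described by counts and medians, with no test over a list.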

Additional observations from a re-analysis of the deposited data

How the results depend on the processing

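Few changes of a log2 fold of 0.5 were recovered from simulated counts, and 2 controls that differed from each other in these genes left several calls to 1 library. Of 915 comparisons of 61 single genes with an alternative, 790 kept their direction and side of the threshold, 62 were lost, 3 passed the test anew and 60 changed sign, all of the last without a call in the original fit. The cause of each change was not tested.

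The genes called of all tested numbered 558 to 1200 when 1 library was left out. The replication members called numbered 3 with total counts alone, 2 after GC correction and 2 with GC correction and replicate block together, and 3 to 5 with 1 library left out. The mitosis members called numbered 4 to 7 over all alternatives. The other replication genes called numbered 5 under DESeq2, 5 with total counts alone and 1 to 4 with 1 library left out, the other mitosis genes 2 to 8 with 1 library left out, and the regulators 8 with total counts alone and 3 to 8 with 1 library left out. The replication median was 0.253 with total counts alone and from -0.093 to 0.23 with 1 library left out, and the mitosis median -0.025 with total counts alone and from -0.259 to -0.05.

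Replicate numbers did not pair the libraries, since the deviations of same-numbered libraries correlated at 0.070 and 0.076. No control bears number 3, so the block fits absorb BcorΔE9-10 library 3 and rest on libraries 1 and 2 of each group. With a replicate block 1454 genes were called (891 higher, 563 lower), 4 replication and 6 mitosis members among them. The only member lost was Ccne1 (-0.60, limma adjusted p = 0.0601). Under the block Rfc4 was at 0.18, Bub1b at -0.057 and Cenpe at -0.048. Under the replicate block with GC correction, Kif23 passed the test (-0.46, adjusted p = 0.0467), and Mcm6 was at 0.033, Rrm1 at -0.094, Tyms at -0.014, Tk1 at 0.087, Rfc4 at 0.12, Pola1 at -0.090, Kif11 at -0.16, Cenpa at -0.22 and Cenpe at -0.19.

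Signs changed as follows. GC correction alone turned Mcm6 to 0.012, Rrm1 to -0.042, Tk1 to 0.094, Pola1 to -0.077, Kif11 from 0.38 to -0.029, Cenpa to -0.17, Cenpe to -0.13 and Tpx2 to 0.046. Total counts alone turned Mcm6 to 0.10, Cdc6 to 0.12, Cdc45 to 0.091, Cdt1 to 0.050, Rrm2 to 0.013, Tk1 to 0.091, Rfc4 to 0.058, Kif23 to 0.003, Tpx2 to 0.057 and Prc1 to 0.056. DESeq2 turned Mcm3 to -0.013, Bub1b to -0.004 and Cenpe to -0.025, its size factors turned Mcm3 to -0.008 and Cenpe to -0.004, and edgeR's test turned Cenpe to -0.009.

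Leaving out 1 library at a time gave log2 fold changes on both sides of 0 for the following members: Mcm3 -0.12 to 0.14, Mcm6 -0.14 to 0.052, Mcm7 -0.056 to 0.32, Gins1 -0.13 to 0.90, Cdc6 -0.18 to 0.11, Cdc45 -0.27 to 0.15, Rrm1 -0.093 to 0.31, Rrm2 -0.51 to 0.24, Tk1 -0.11 to 0.018, Rfc4 -0.24 to 0.15, Ccnb2 -0.16 to 0.29, Aurka -0.50 to 0.011, Bub1b -0.22 to 0.28, Ttk -0.33 to 0.034, Kif11 -0.038 to 0.79, Cenpa -0.14 to 0.34 and Cenpe -0.22 to 0.24.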
